A study of Mus musculus with 9 samples.

Results

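18 miRNAs were counted in every beads-depleted library of mouse serum RNA and in no undepleted control library. They were chosen by their measured counts. A mature miRNA was eligible when the number in its miRBase identifier (MIMAT followed by digits) was below 14000 and outside 4520 to 4700. It was taken when all 3 beads-depleted libraries held at least 1 count and none of the 3 control libraries listed it. Of 876 identifiers with a count in any of the 9 libraries, 369 were eligible, and 295 of these had a count in all 3 beads-depleted libraries. The 18 therefore made up 4.88% of the eligible identifiers and 6.10% of those seen in every beads-depleted library. Because the presence after beads depletion and the absence from control libraries chose them, both are descriptions here and carry no test.

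The RNA came from serum of healthy male and female 129/SVj mice aged 2 to 9 months, pooled over 3 mice. Each of the pools A, B and C was divided into a control fraction that was left undepleted, a fraction depleted of 5′ tRNA-half fragments with biotinylated DNA probes and magnetic streptavidin beads, and a fraction depleted with such probes and RNase H, an enzyme that cuts RNA paired with DNA. All mice were untreated apart from the sedation for blood collection. The labels name 3 pools, whereas the methods describe aliquots of 1 pool, so the spread between the libraries of a group may be technical only.

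miRNAs are short RNAs cut from hairpin precursors that guide Argonaute proteins to messenger RNAs and lower their output. In blood they are found outside cells in vesicles and bound to proteins, after release from blood cells, vessels and solid organs. A miRNA of low abundance in serum is read only when enough of the sequencing reads of a library are left for miRNAs, and in undepleted mouse serum most reads go to 5′ tRNA-half fragments. The number of miRNA counts is thus the depth at which a rare miRNA is looked for. The deposited files give identifiers without names or sequences, and the reference tables used here do not pair the identifiers with names. The members are therefore given by identifier, and their names, seed families, sequences and tissues of origin were not analysed here.

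The control libraries held 205185 to 330676 miRNA counts, the beads-depleted libraries 1822088 to 1995956 and the RNase H-depleted libraries 1199 to 2040. Summed over the group, beads-depleted libraries held 7.32 times as many miRNA counts as control libraries. Since 3 counts were taken as the smallest amount a group could show, a count of 0 allowed a level of up to 3.82 CPM (counts per 1000000 miRNA counts) over the 3 control libraries and of up to 575 CPM over the 3 RNase H-depleted libraries. These limits cover counting error only, since amplified reads are not independent molecules.

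Together the 18 miRNAs had 89, 94 and 109 counts in the beads-depleted libraries of pools A, B and C, a mean of 97.3 ± 10.4 (SD, n = 3). This was 50.8 CPM over the group. Nearly all of them were at the edge of detection. In 17 of the 18, no beads-depleted library held more than 10 counts, and 8 of the 18 had a library with a single count. The median of the summed count over 3 libraries was 9, and the sums ranged from 4 to 116.

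MIMAT0004828 stood apart from the rest. It had 37 counts in pool A, 34 in pool B and 45 in pool C after beads depletion, a mean of 38.7 ± 5.69 (SD, n = 3). It alone held 39.7% of the counts of all 18 miRNAs. Its level was 19.2 CPM in pool A (exact Clopper-Pearson 95% confidence interval 13.5 to 26.5), 17.0 in pool B (11.8 to 23.8) and 24.7 in pool C (18.01 to 33.0). The intervals of the 3 pools overlapped. The ratio of the highest to the lowest count was 1.32, the smallest among the 18. Counting error alone widens this ratio more at the low counts of the others.

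MIMAT0009393 came next, with 5 counts in pool A, 7 in pool B and 10 in pool C (mean 7.33 ± 2.52, SD, n = 3). MIMAT0005293 had 4, 4 and 6 counts in pools A, B and C (mean 4.67 ± 1.15, SD, n = 3). MIMAT0004871 was counted 6 times in pool A, 3 times in pool B and 6 times in pool C (mean 5 ± 1.73, SD, n = 3). Every beads-depleted library held at least 3 counts of these miRNAs, of MIMAT0004828 and of MIMAT0004857, which makes 5 of the 18.

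Relative to counting error (chi-square statistic per degree of freedom), the counts of 4 miRNAs were spread most unevenly over the pools. MIMAT0004857 had 3 counts in pools A and C and 10 in pool B. For MIMAT0001095 the counts were 6, 10 and 2 in pools A, B and C, so that the same pool was highest. The reverse was seen for MIMAT0004519, with 7 counts in pool A, 9 in pool C and only 2 in pool B. MIMAT0004873 had a single count in pools A and B and 6 in pool C. The identifier of MIMAT0004519 lies directly below the excluded range of numbers.

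The other members had between 4 and 12 counts in all. MIMAT0003737 had 5, 2 and 5 counts in pools A, B and C, and MIMAT0000679 had 4, 4 and 2. MIMAT0004858 was counted 3 times in pool A and 2 times in each of pools B and C. These 3 miRNAs had at least 2 counts in every beads-depleted library.

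For MIMAT0000239 the counts were 1 in pool A, 3 in pool B and 2 in pool C. MIMAT0003726 had 2, 3 and 1 counts in these pools, and MIMAT0009417 had 1, 1 and 4. Of the sparsest members, MIMAT0003898 had 1, 3 and 1 counts in pools A, B and C, and MIMAT0004753 had 1, 2 and 2. MIMAT0000567, with 1, 1 and 2 counts, and MIMAT0009395, with 1, 2 and 1 counts, had the smallest sums of all and were just inside the rule. These 7 miRNAs and MIMAT0004873 each rested on a single read in at least 1 library.

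**Figure D1:**
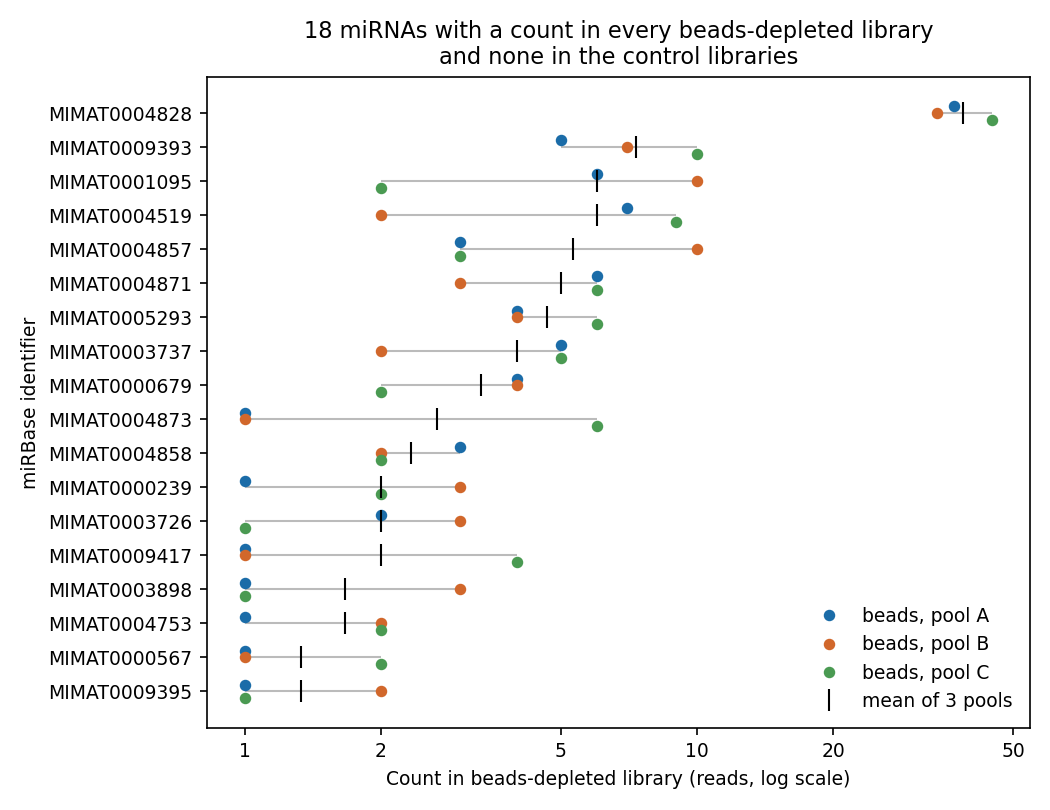
Counts of the 18 miRNAs in the beads-depleted libraries (horizontal axis, reads on a log scale, 1 point per serum pool) with the mean of 3 pools as a black mark and a grey line from the lowest to the highest pool. MIMAT0004828 lies at 34 to 45 counts, and the other 17 lie at 10 counts or fewer in every pool.

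The spread between pools was described by the chi-square statistic per degree of freedom. Its mean, not its median, is near 1 when only counting error is present and no miRNAs are selected by their counts. The mean was 1.11 over the 18 miRNAs and 1.33 over the 34 other miRNAs of similar abundance. The latter were those seen in all 3 beads-depleted libraries and in control with a summed beads count of 4 to 22. The medians were 0.714 and 0.681. Both sets had to have a count in every beads-depleted library, which removes uneven patterns of rare miRNAs. These values therefore cannot decide whether the spread differed from counting error. MIMAT0004873 had the highest value of the 18, at 3.46. MIMAT0004828, with the smallest ratio of highest to lowest count, had a value of 1.45, above the median of the 18. Pool C held the highest count of 7 members, pool B of 6 and pool A of 1, while 4 had a tie.

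How many miRNAs the control libraries would miss by depth alone was computed from the beads-depleted libraries. For each of the 295 miRNAs seen in all 3 of them, the share of miRNA counts after beads depletion was multiplied by the miRNA counts of each control library, and the Poisson probability of no count in any control library was summed. This gave 13.3 miRNAs, against the 18 observed.

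The same calculation was set against the numbers of miRNAs seen in some of the control libraries. Detection in exactly 1 control library was observed for 30 miRNAs and expected for 23.7. In exactly 2 control libraries it was observed for 23 and expected for 28.9, and in all 3 for 224 and expected for 229.1. The observed number was higher than expected for 0 and 1 control libraries and lower for 2 and 3. For miRNAs without any control count the difference was 4.72. The SD of that expected number was 2.96 from counting in control libraries alone, with the beads shares taken as known. These shares come from miRNAs required to have a count in every beads-depleted library, which can raise the shares of rare ones.

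**Figure D2:**
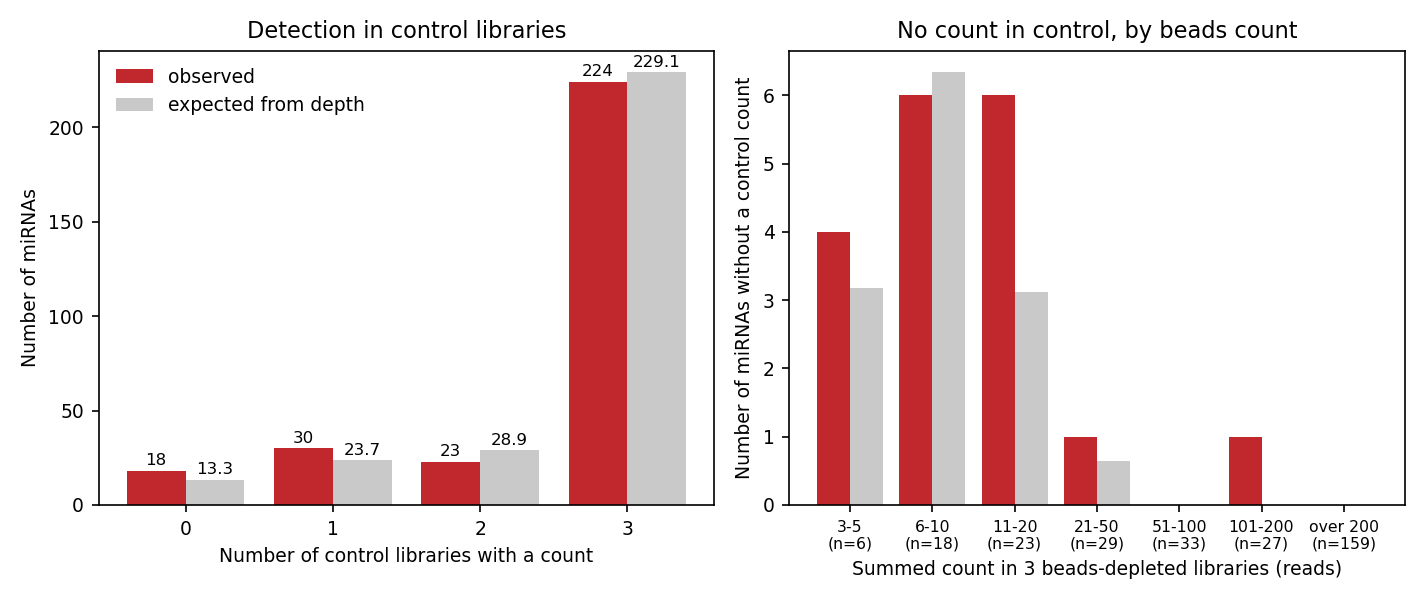
Left, numbers of miRNAs (vertical axis) seen in 0, 1, 2 or 3 control libraries among the 295 seen in all beads-depleted libraries, observed in red and expected from depth in grey. Right, numbers without a control count by their summed beads count, with the number of miRNAs in each range below the axis. From 51 counts upward the expectation is close to 0, and 1 miRNA, MIMAT0004828, was observed there.

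By summed beads count, 4 of 6 miRNAs with 3 to 5 counts had no control count, where 3.18 were expected. In the range of 6 to 10 counts it was 6 of 18 miRNAs, and 6.34 were expected. Of the 23 miRNAs with 11 to 20 counts 6 were without a control count against 3.11 expected, and of the 29 with 21 to 50 counts 1 against 0.642. Among 33 miRNAs with 51 to 100 counts none was missed. MIMAT0004828 was the only miRNA without a control count among the 27 with more than 100 and up to 200 counts, and none of the 159 above 200 counts was missed.

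The count that each member would have had in control was low for nearly all. Summed over 3 control libraries, under 1 count was expected for 8 of the 18 miRNAs, and 1 to 3 counts for another 8. The median was 1.23 counts. The lowest expectation, for MIMAT0000567 and MIMAT0009395, was 0.546 counts (95% Poisson interval of the beads counts 0.149 to 1.40). These 16 miRNAs were expected below the 3 counts taken as the floor, so no lower bound on their difference from control libraries can be given.

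MIMAT0009393 was expected at 3.00 control counts (interval 1.88 to 4.55), on the limit of 3 counts. MIMAT0004828 was expected at 15.8 control counts (interval 13.1 to 19.0), made up of 4.14 in pool A, 6.68 in pool B and 5.02 in pool C, and had 0 in each. Taking 3 counts over the control group as the floor, its level after beads depletion was 5.28 times that floor. This ratio leaves out the counting error of the beads counts, and the rule chose this miRNA by the counts compared. A count of 0 in a single control library allowed up to 14.6, 9.07 and 12.1 CPM in pools A, B and C, and the beads level lay above this limit in all 3 pools, although the interval of the beads level reached below it in pool A.

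**Figure D3:**
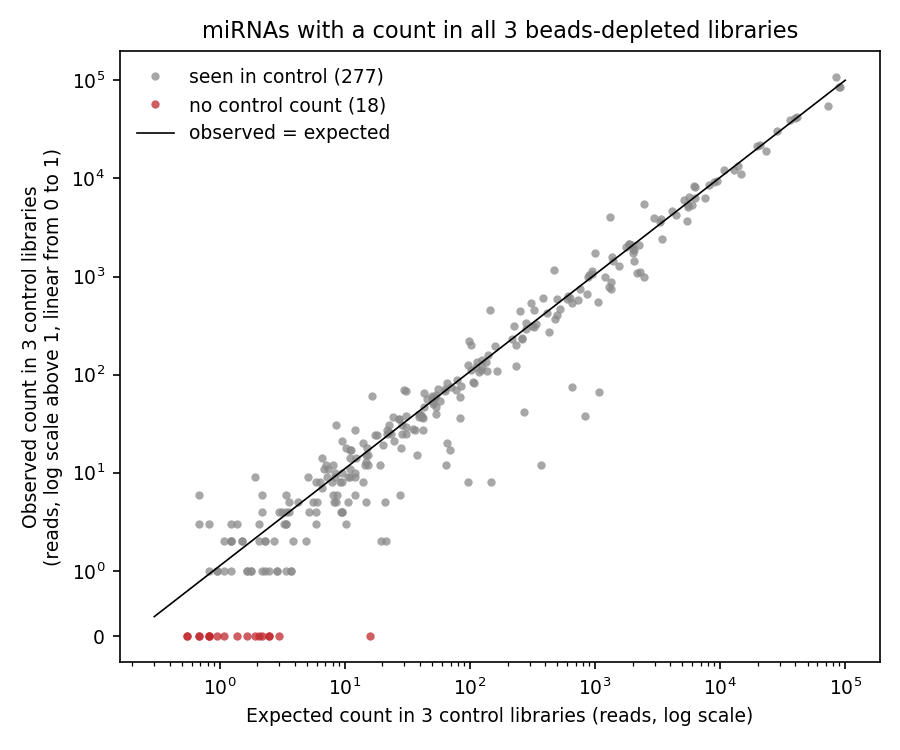
Observed against expected counts summed over 3 control libraries (both axes in reads, on log scales, the vertical one linear from 0 to 1) for the 295 miRNAs seen in all beads-depleted libraries. The 18 miRNAs without a control count are in red along the bottom; MIMAT0004828 lies at an expected 15.8 counts, and the other 17 at 3.00 or fewer.

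Other miRNAs fell just outside the rule. 17 miRNAs with a count in all beads-depleted libraries had exactly 1 count in control. The most abundant of them were MIMAT0000214, with 13, 3 and 11 beads counts in pools A, B and C and 1 control count in pool C, and MIMAT0009397, with 4, 17 and 6 beads counts and 1 control count in pool A. MIMAT0004942 followed, with 5, 6 and 14 beads counts and 1 control count in pool A. Each of these sums exceeded that of every member except MIMAT0004828.

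A further 20 eligible miRNAs had counts in exactly 2 beads-depleted libraries and none in control, led by MIMAT0003490 with 7 counts in pool B and 2 in pool C. In the opposite direction, no eligible miRNA was seen in all 3 control libraries without a beads count, and 3 were seen in control but in no beads-depleted library. Of the 34 other miRNAs of similar abundance, 25 had a count in 1 control library, 5 in 2 and 4 in 3, with a median sum of 2 control counts and a highest of 9.

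The members were unevenly placed along the order of identifiers, in ranges set after they were known. Of the 160 miRNAs seen in all beads-depleted libraries with identifier numbers below 1000, 3 were members (1.88%), where 4.47 were expected without a control count. With numbers from 1000 up to the excluded range it was 5 of 72 (6.94%, 4.07 expected), from there to 6000 it was 7 of 44 (15.9%, 3.01 expected) and from 6000 to 14000 it was 3 of 19 (15.8%, 1.72 expected). Abundance moved with the identifier as well, with a median summed beads count of 1011 in the lowest range and of 85, 69 and 48 in the ranges above it.

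RNase H depletion was not used to choose the members, and none of the 18 had a count in any RNase H-depleted library. From their levels after beads depletion, 0.265 counts were expected for all 18 together over the 3 RNase H-depleted libraries, and 0.259 members were expected to be seen at all. MIMAT0004828 accounted for 0.105 of these counts, and no other member was expected at more than 0.0200. A level of 20.3 ± 3.95 CPM (SD, n = 3), that of MIMAT0004828 after beads depletion, was far below the 575 CPM that the RNase H-depleted libraries could show, so its presence there was not detectable at this depth.

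Other miRNAs were in the same position. None of the 34 miRNAs of similar abundance had a count after RNase H depletion either, with 0.382 expected to be seen. Over all 295 miRNAs seen in every beads-depleted library, 124 were seen in at least 1 RNase H-depleted library, and 121.8 were expected from their beads levels. All of these 124 had a summed beads count above 22. MIMAT0009397, just outside the rule, had 1 count in RNase H-depleted pool A.

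Of the 307 miRNAs that passed the filter on low counts in edgeR's quasi-likelihood test between beads-depleted and control libraries, 51 were higher in beads-depleted libraries at an adjusted p below 0.05, which is 16.6%. Another 31 were lower. MIMAT0004828 was the only one of the 18 to pass the filter, which it did through the beads-depleted libraries, and it was among those 51. The test used the contrast that chose the members, so this is a description. The other 17 did not pass the filter. MIMAT0004828 was also the only member called with the serum pool as a block, with DESeq2, without a filter and without each pool in turn. In these fits 8.57% to 29.6% of all miRNAs tested were called in either direction.

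The number expected to be missed depended on the library size used, and it and the number of members on the libraries kept. With all annotated counts in place of miRNA counts as library size, 0.0162 miRNAs instead of 13.3 were expected to be missed. However, miRNAs made up 4.92% to 6.72% of annotated counts in control libraries and 51.5% to 71.4% in beads-depleted libraries. That library size is thus no measure of the depth for miRNAs. The rule found 35 miRNAs without pool A (24.3 expected), 41 without pool B (31.0 expected) and 32 without pool C (27.5 expected), since fewer libraries make it easier to meet.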

How the data were processed

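Small RNA of 9 libraries (3 each of control, beads-depleted and RNase H-depleted serum RNA) was analysed from the raw counts deposited by the authors, who trimmed reads with Cutadapt (1.8.1), mapped them without mismatches with Bowtie (1.1.2) to GRCm38 and annotated miRNAs with miRBase (v20). Each library has 1 list of miRNA counts and 1 of other small RNA counts, both starting at 1 count. A miRNA without a row was set to 0. Reads with a mismatch or an untemplated end are lost in this mapping.

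Expected control and RNase H counts were the pooled beads share times the miRNA counts of a library (Poisson; SciPy 1.17.1, Python 3.11.15). edgeR 4.0.16 (R 4.3.3; TMM, filterByExpr, quasi-likelihood, Benjamini-Hochberg adjustment) was fitted to all miRNAs of the beads-depleted and control libraries, and DESeq2 1.42.0 was an alternative. Both calculations were run on simulated data, drawn from the same shares in both groups or with set changes. This cannot show whether beads shares hold in control libraries. Libraries of a pool share their RNA by the labels, and their deviations correlated at 0.161, 0.0495 and 0.0320 in pools A, B and C. All 18 members were to be named. Members and lists were chosen with earlier results of these data known. Lists of tissue miRNAs by name could not be applied to identifiers.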

Additional observations from a re-analysis of the deposited data

How the results depend on the processing

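The number of miRNAs with counts in all beads-depleted and no control libraries was 5 when at least 3 counts and 1 when at least 10 counts were required in each beads-depleted library, and 58 over all identifiers. It ranged from 32 to 41 without 1 of the pools, since fewer libraries make the rule easier to meet. The expected number of missed miRNAs, 13.3, was 13.1 with each pool paired with its own beads library (replicate block), 11.9 with the beads counts thinned within the pool, 13.3 with a negative binomial and 13.2 with TMM library sizes. It was 24.3 to 31.0 without 1 of the pools. With all annotated counts as library size it was 0.0162, but miRNAs held a much smaller share of these in control libraries. Members expected above 3 control counts numbered 2, but 18 with all annotated counts as library size. With 1 pool left out, the miRNAs found by the rule were counted instead, which are more than the 18 members. Of these, 3 were expected above 3 control counts without pool A, 3 without pool B and 1 without pool C. With all pools, MIMAT0009393 is on the limit of 3 counts. In the 7 alternatives to the edgeR fit, 1 member (MIMAT0004828) was called. Without a filter 18 members were tested, and in the other alternatives only this one. Of all miRNAs tested, 8.57% to 29.6% were called in either direction. These fits repeat the contrast that chose the members. Of the 18 members 0 had a count after RNase H depletion, and without each pool in turn 0 of the miRNAs found by the rule had one in the remaining pools. Expected counts assume counting error alone, and 16 of the 18 members were expected below the floor of 3 control counts.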

Other observations

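MIMAT0004828 was not alone in lying below its expected control count. Of the 200 eligible miRNAs expected at 10 or more control counts, 11 had at most 20% of that number, whereas the median was 97.1%. Departures ran upward as well, with 306% for MIMAT0000525 and up to 372%, for MIMAT0004859. The 10 low miRNAs besides MIMAT0004828, a set made after the values were seen, had 2 to 75 control counts each. Their summed beads counts were 142 to 7846. MIMAT0000657, for example, had 888, 835 and 1001 beads counts in pools A, B and C against 3, 3 and 6 control counts, and MIMAT0000162 had 1913, 1908 and 2249 against 7, 14 and 17. The RNase H-depleted libraries, which were not used to choose these 10, held 22 of their counts, 9, 7 and 6 in pools A, B and C. From the beads-depleted libraries 23.5 were expected, and from the control libraries 1.76. Only 7 of the 10 had a count after RNase H depletion. MIMAT0003479, MIMAT0003188 and MIMAT0000146 had none, and 0.142, 0.129 and 0.425 counts were expected for them from the beads-depleted libraries. The level after RNase H depletion was 4218 CPM (exact 95% interval 2645 to 6379), beside 4513 after beads depletion and 338 in control libraries. The interval covers only counting error of reads pooled over 3 libraries and 10 miRNAs, not the spread between libraries or between miRNAs. The cause of the low control counts was not tested. MIMAT0004828 was too rare in these libraries to be placed.

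Outside the eligible identifiers, miRNAs seen in all beads-depleted and no control libraries were counted by the same rule. In the range from 4520 to 4700 they numbered 3 of 59 seen in every beads-depleted library, where 3.60 were expected to be missed by depth. From 14000 upward they numbered 37 of 160, where 23.8 were expected. The highest summed beads counts were 18 and 45. Only MIMAT0027997 among these had a count after RNase H depletion, 1 in pool B, beside 2, 10 and 3 beads counts in pools A, B and C.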
